A study of Mus musculus with 10 samples.

Results

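The guanylyl cyclase D (GC-D) necklace neuron genes followed here are Gucy2d, Pde2a, Cnga3, Car2, Guca2a and Guca2b, 6 of the 19938 genes that the arrays name. They were chosen by symbol as a set that lies outside canonical odor detection, and every probe set that the platform assigns to 1 of these symbols alone was taken, which gave 1 probe set per gene. The samples were 4 arrays of whole main olfactory epithelium (MOE) from H2be-GF mice and 6 from wild-type (WT) mice, all 5 weeks old. H2be-GF mice carry an Omp:Flag-H2be transgene, in which the promoter of olfactory marker protein (Omp) drives a FLAG-tagged copy of the histone variant H2BE, and WT mice carry no transgene. The H2be-GF animals derive from 1 founder line, and per the study's methods a band of mature neurons near zone 2 does not express the transgene. Whether the necklace neurons expressed it was not measured on these arrays. The RNA of an array came from a pool of animals, and H2be-GF pools held more animals than WT pools.

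Necklace neurons are a small population of olfactory sensory neurons whose axons end in a ring of glomeruli at the back of the olfactory bulb. Most neurons of the MOE choose 1 odorant receptor (OR) gene and signal through cAMP, whereas necklace neurons express no OR and signal through cGMP, made by the receptor cyclase GC-D. They respond to the peptides guanylin and uroguanylin, to carbon disulfide and to carbon dioxide, and they are known for their part in learning food preferences from other animals.

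Values are log2 signals, and they are compared between arrays for a given gene and not between genes. Array medians lay between 7.74 and 7.91, and any pair of arrays correlated at 0.969 to 0.988. The RNA Xist, made from the silenced X chromosome of females, separated 5 Xist-high arrays from 5 Xist-low arrays, each set with 2 H2be-GF and 3 WT, although the series describes an equal mixture of the sexes. Sex is not given for single arrays. Hist2h2be, the gene of H2BE, was at 11.84 ± 0.07 (SD, n = 4) for H2be-GF and 12.07 ± 0.05 (SD, n = 6) for WT (limma adjusted p = 0.297). Every H2be-GF array lay below every WT array, and 2.89% of all probe sets separated the genotypes in this way in either direction. By quantitative PCR, the study found the transgene expressed well above the endogenous gene in this line. Whether the Hist2h2be probe set, or that of Omp, reads the transgene is not known here. Marker genes of mature olfactory neurons were all measured. A summed level is the log2 of the summed linear signals of a list. That of the 8 mature neuron markers was 15.1892 to 15.2769 in H2be-GF and 15.2781 to 15.3515 in WT, ranges that came close and did not overlap. Of the 8 markers, 7 were lower in H2be-GF and 0 were called. No marker list can show which cells supplied the RNA of the 6 genes.

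None of the 6 necklace neuron genes was called higher or lower in H2be-GF than in WT. The differences of the means ran from -0.10 for Guca2b to 0.05 for Guca2a on the log2 scale. A call means an adjusted p under 0.05 in limma, fitted over 23194 probe sets with a mean above 5, a filter that all 6 genes passed. The filter is not a test against background, and Gucy2d, Cnga3 and Guca2a had means below every array median. Limma called 0 of the 6 genes, and 0 of them had an unadjusted p under 0.05. Over all probe sets tested, 20 were called (0.0862%), 11 higher (0.0474%) and 9 lower (0.0388%) in H2be-GF, and 8.43% had an unadjusted p under 0.05. At such a share, a count of 0 among 6 genes says nothing particular about them. Of the 24 H2be-GF values of the 6 genes, 22 lay within the range of the WT arrays, and the 2 outside it both came from the array H2be-GF 2. That of Guca2a, at 6.089, lay only just under the lowest WT value of 6.091. The matching share over all probe sets was not counted. In bulk tissue, fewer necklace neurons and less RNA per neuron cannot be told apart. An exact permutation test, two-sided and over all 210 ways to split the arrays, is added for each gene and can give no p below 0.00476.

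**Figure D1:**
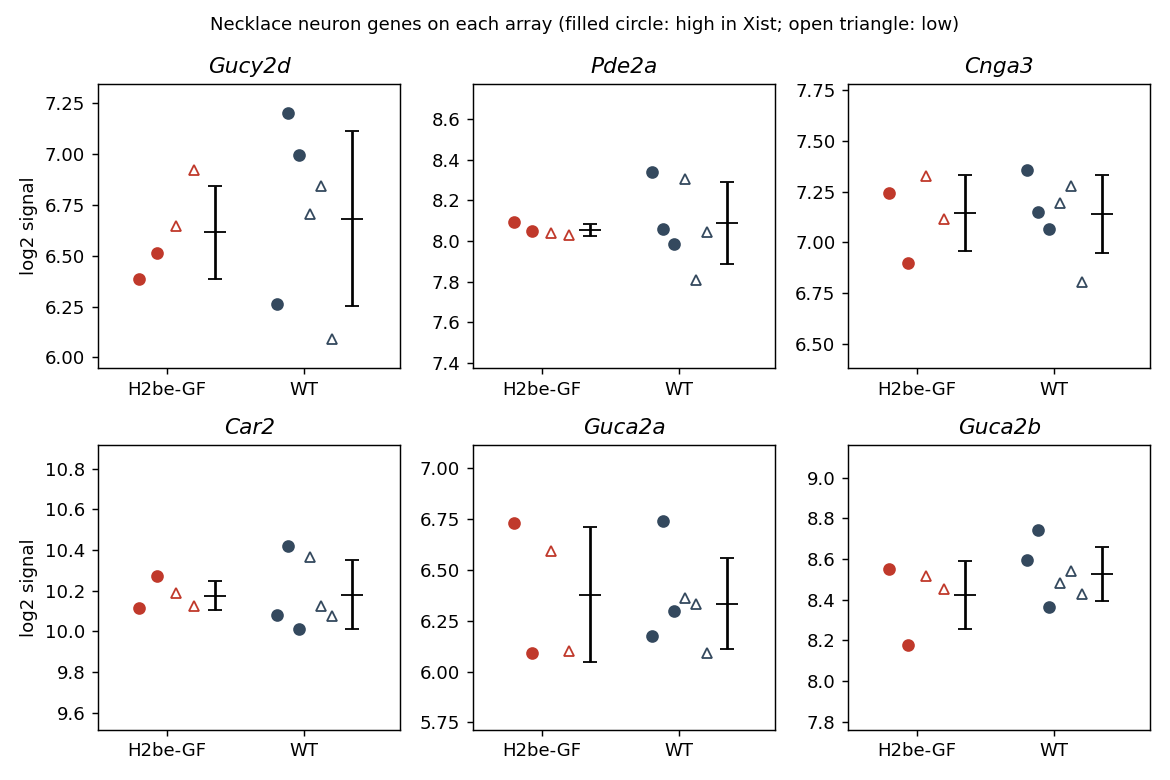
Level of each necklace neuron gene on each array (vertical axis, log2 signal) in H2be-GF (red, 4 arrays) and WT (blue, 6 arrays), with the mean and SD beside the points; filled circles are Xist-high arrays and open triangles Xist-low arrays. Apart from H2be-GF 2, only just under the WT range for Guca2a and below it for Guca2b, H2be-GF points lie within the WT range. Gucy2d spreads most, at 6.09 to 7.20 in WT, and the H2be-GF points of Pde2a lie within 8.03 to 8.10.

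Gucy2d encodes GC-D, the transmembrane cyclase that defines the necklace neurons and binds the peptides on its outer face. The 250 bases before its annotated start lie at chr7:98440166-98440415 on the forward strand (RefSeq, build GRCm38.p6) and are shown because Gucy2d is the gene that defines these neurons.
Gucy2d: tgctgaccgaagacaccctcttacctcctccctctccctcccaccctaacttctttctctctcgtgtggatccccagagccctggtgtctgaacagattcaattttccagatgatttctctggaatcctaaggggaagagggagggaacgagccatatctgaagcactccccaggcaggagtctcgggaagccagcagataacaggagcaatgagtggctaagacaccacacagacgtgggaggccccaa
The stretch has a GC content of 54.4% and 5 CpG. No capitals appear in it because none of 5 motifs matched on either strand. They were CCCNNGGG (the core bound by EBF factors), TAATTA (a homeodomain core, the type bound by LHX2), TGACGTCA (the cAMP response element), TATAAA (the TATA box) and GTTAAT (part of the HNF1 site), searched in windows that also held the 50 bases after the start. Among 32851 such windows of the genome, these motifs occurred in 13.7%, 5.29%, 1.79%, 13.6% and 7.1%, so that their absence from any given promoter is common and says nothing about the factors. GTTAAT and TAATTA can share letters.

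Gucy2d was at 6.39, 6.51, 6.65 and 6.92 on the H2be-GF arrays, and at a lowest of 6.09, a median of 6.78 and a highest of 7.20 over the WT arrays. All 4 H2be-GF values fell inside the WT range. The means were 6.62 ± 0.23 (SD, n = 4) for H2be-GF and 6.68 ± 0.43 (SD, n = 6) for WT, a log2 difference of -0.07 (SE 0.20, limma adjusted p = 0.956, exact permutation p = 0.790). The 95% interval, -0.51 to 0.38, allows anything between 0.701-fold and 1.30-fold of the WT signal, the widest bound of the 6 genes. Whether this probe set reads above background was not tested, so the bound holds for signal and not for RNA. Its spread within genotypes, an SD of 0.37, compares with a median SD of 0.23 over the 4116 probe sets within 0.5 log2 units of its level. The WT arrays alone spanned 1.11 log2 units from lowest to highest, which is a range of single arrays and not a difference of means.

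Pde2a encodes a phosphodiesterase that cGMP itself stimulates and that GC-D neurons express, and it is also found in endothelium and brain. It was at 8.10, 8.05, 8.04 and 8.03 on the H2be-GF arrays, against a lowest of 7.81, a median of 8.05 and a highest of 8.34 in WT. The 4 H2be-GF pools lay close together near the WT median, while 2 WT arrays, WT 1 at 8.34 and WT 4 at 8.31, stood above the rest. The means were 8.05 ± 0.03 (SD, n = 4) for H2be-GF and 8.09 ± 0.20 (SD, n = 6) for WT, a difference of -0.04 (SE 0.10, limma adjusted p = 0.945, exact permutation p = 0.814). The 95% interval of -0.26 to 0.18 spans 0.838-fold to 1.13-fold. Endothelial markers, 6 of 6 measured, had a summed level of 10.77 to 10.89 in H2be-GF and 10.74 to 10.95 in WT, overlapping in the same way, and their part in the level of Pde2a was not tested.

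Cnga3 encodes the cGMP-gated cation channel subunit that opens when GC-D makes cGMP, the same subunit that cone photoreceptors use. It was at 7.24, 6.90, 7.33 and 7.11 on the H2be-GF arrays, and ran from 6.81 through a median of 7.17 to 7.36 on the WT arrays. The genotypes overlapped almost completely. Means were 7.15 ± 0.19 (SD, n = 4) for H2be-GF and 7.14 ± 0.19 (SD, n = 6) for WT, a difference of 0.01 (SE 0.11, limma adjusted p = 0.993, exact permutation p = 0.967). The 95% interval was -0.24 to 0.25, or 0.845-fold to 1.19-fold. The sign of so small a difference was not stable and turned negative under several of the processing alternatives.

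Car2 encodes the cytosolic carbonic anhydrase that turns carbon dioxide into bicarbonate, the form that GC-D senses. It is also abundant in red blood cells and in osteoclasts. Car2 was at 10.12, 10.27, 10.19 and 10.13 on the H2be-GF arrays, and at a lowest of 10.01, a median of 10.10 and a highest of 10.42 in WT. All H2be-GF values lay within the WT range. Both means came to 10.18, with an SD of 0.07 in H2be-GF (n = 4) and 0.17 in WT (n = 6), and differed by -0.0048 on the log2 scale (SE 0.09, limma adjusted p = 0.993, exact permutation p = 0.971). The 95% interval of -0.20 to 0.19 spans 0.869-fold to 1.14-fold.

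Markers of other cells that make Car2 were read beside it. The erythroid markers, 5 of 6 measured, were all lower in H2be-GF, with a median change of -0.22 and a summed level of 10.25 to 10.59 in H2be-GF and 10.41 to 10.87 in WT. None of them was called, and 2 had an unadjusted p under 0.05. Osteoclast and bone markers, 5 of 6 measured, summed to 13.36 to 13.49 in H2be-GF and 13.40 to 13.56 in WT. None of the measured markers of either list was near 0, and their part in the level of Car2 was not tested.

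Guca2a encodes guanylin and Guca2b uroguanylin, small secreted peptides best known from the intestine, where they act on the receptor Gucy2c, and both activate GC-D neurons when they reach the nose. The 2 genes are direct neighbours on chromosome 4. The 250 bases before each start are set side by side because these were the 2 members whose levels varied together most closely over the arrays. That of Guca2a lies at chr4:119637482-119637731 on the forward strand and that of Guca2b at chr4:119658946-119659195 on the reverse strand (RefSeq, GRCm38.p6), and capitals mark a match to CCCNNGGG in Guca2a and to GTTAAT in Guca2b.
Guca2a: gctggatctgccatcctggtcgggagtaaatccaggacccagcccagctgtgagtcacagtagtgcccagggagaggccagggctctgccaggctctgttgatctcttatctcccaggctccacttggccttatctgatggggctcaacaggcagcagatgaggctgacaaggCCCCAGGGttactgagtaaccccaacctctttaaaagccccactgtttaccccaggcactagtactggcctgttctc
Guca2b: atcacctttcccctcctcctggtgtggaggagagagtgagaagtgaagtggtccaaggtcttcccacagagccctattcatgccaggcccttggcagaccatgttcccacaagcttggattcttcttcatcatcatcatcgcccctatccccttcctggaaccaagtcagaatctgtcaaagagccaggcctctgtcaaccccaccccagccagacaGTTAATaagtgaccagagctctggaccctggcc
The upstream stretch of Guca2b held GTTAAT, 33 bases before the start, a hexamer that 7.1% of all windows also hold. That of Guca2a held CCCNNGGG, 77 bases before the start, a pattern found in 13.7% of windows. In the other windows, 1 of Pde2a held GTTAAT 188 bases before its start and 1 of Cnga3 held TATAAA on the reverse strand 122 bases before its start, in 10 windows of 5 genes searched in all. A match is a match of letters and not a measured binding site.

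Guca2a was at 6.73, 6.09, 6.59 and 6.10 on the H2be-GF arrays, against a lowest of 6.09, a median of 6.31 and a highest of 6.74 in WT. The H2be-GF pools fell into a high and a low pair, H2be-GF 1 and 3 near the top of the WT range and H2be-GF 2 and 4 at its lower end. The means were 6.38 ± 0.33 (SD, n = 4) for H2be-GF and 6.33 ± 0.22 (SD, n = 6) for WT, a difference of 0.05 (SE 0.15, limma adjusted p = 0.960, exact permutation p = 0.790). The 95% interval was -0.29 to 0.38, or 0.818-fold to 1.30-fold in signal, which was not tested against background either.

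Guca2b was at 8.55, 8.18, 8.51 and 8.45 on the H2be-GF arrays, and at a lowest of 8.36, a median of 8.51 and a highest of 8.74 in WT. The array H2be-GF 2 lay below every WT array, and the other 3 lay among them. The means were 8.42 ± 0.17 (SD, n = 4) for H2be-GF and 8.53 ± 0.13 (SD, n = 6) for WT. The difference of -0.10 (SE 0.09, limma adjusted p = 0.806, exact permutation p = 0.343) was the largest of the 6 genes, with a 95% interval of -0.31 to 0.10, or 0.809-fold to 1.07-fold. Without H2be-GF 2 it was -0.02. Markers of intestinal-type secretory epithelium, 5 of 5 measured, Gucy2c among them, summed to 11.89 to 12.05 in H2be-GF and 11.87 to 12.01 in WT, and their part in the level of either peptide gene was not tested.

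Genotype differences were also taken within each set of arrays that Xist separates, each of 2 H2be-GF against 3 WT. The difference for Gucy2d was -0.37 on the Xist-high arrays and 0.24 on the Xist-low ones, with opposite signs. A test of the difference between the sets (limma interaction) gave -0.60 (SE 0.40, adjusted p = 1.00), so that opposite signs were not a called difference. Guca2b gave -0.20 on the Xist-high arrays and -0.00078 on the Xist-low arrays, and Cnga3 gave -0.12 and 0.13 in the same order. Pde2a, Car2 and Guca2a stayed between -0.06 and 0.09 in both sets. Between the sets themselves, irrespective of genotype, 0 of the 6 genes were called (limma adjusted p of 0.992 or above), while 99 of all probe sets were (0.427%). The largest of the 6 differences was that of Guca2a, at 6.41 on the Xist-high arrays and 6.30 on the Xist-low arrays.

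The canonical odor transduction genes formed the comparison set, 10 genes of the cAMP pathway and its companions in OR neurons. They comprised the olfactory G protein Gnal, the adenylyl cyclase Adcy3, the channel subunits Cnga2, Cnga4 and Cngb1, the chloride channel Ano2, the phosphodiesterases Pde1c and Pde4a, the G protein subunit Gng13, and Omp. Of these, 8 were lower and 2 higher in H2be-GF in mean, with a median change of -0.10, beside -0.02 for the 6 necklace neuron genes and 0.01 for all probe sets tested. Limma called 0 of the 10. For 2 of them no H2be-GF array reached the lowest WT array, against 0 of the 6 necklace neuron genes and 2.89% of all probe sets, counted in either direction. Cnga2, the main subunit of the OR neuron channel, was at 12.35, 12.33, 12.41 and 12.41 on the H2be-GF arrays and at 12.44 to 12.54 with a median of 12.51 in WT, a difference of -0.12 (SE 0.05, limma adjusted p = 0.604). The other was Omp, at 12.78 ± 0.03 (SD, n = 4) for H2be-GF and 12.88 ± 0.04 (SD, n = 6) for WT, a difference of -0.10 (SE 0.05, limma adjusted p = 0.659). The transgene keeps the Omp genomic region around its coding sequence, and whether the Omp probe set reads it is not known. Omp is also among the mature neuron markers and the 10 genes averaged below.

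The 95% intervals of all 6 necklace neuron genes were wider than that of any canonical gene. The narrowest of them, that of Car2 (-0.20 to 0.19), barely exceeded the widest canonical one, that of Gng13 (-0.27 to 0.12). To set each necklace neuron gene against the canonical pathway of its own array, the mean of the 10 canonical genes, 11.47 ± 0.01 (SD, n = 4) for H2be-GF and 11.54 ± 0.03 (SD, n = 6) for WT, was subtracted from its level. The canonical mean was itself lower on every H2be-GF array (11.46 to 11.49) than on any WT array (11.50 to 11.58). That difference of -0.07 (exact permutation p = 0.00476) moves all 6 relative differences upward by the same amount. On this relative scale the differences ran from -0.04 for Guca2b to 0.11 for Guca2a, with exact permutation p between 0.495 for Car2 and 0.995 for Gucy2d. None of these relative differences exceeded the spread between arrays. This relation was added after the data had been seen.

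**Figure D2:**
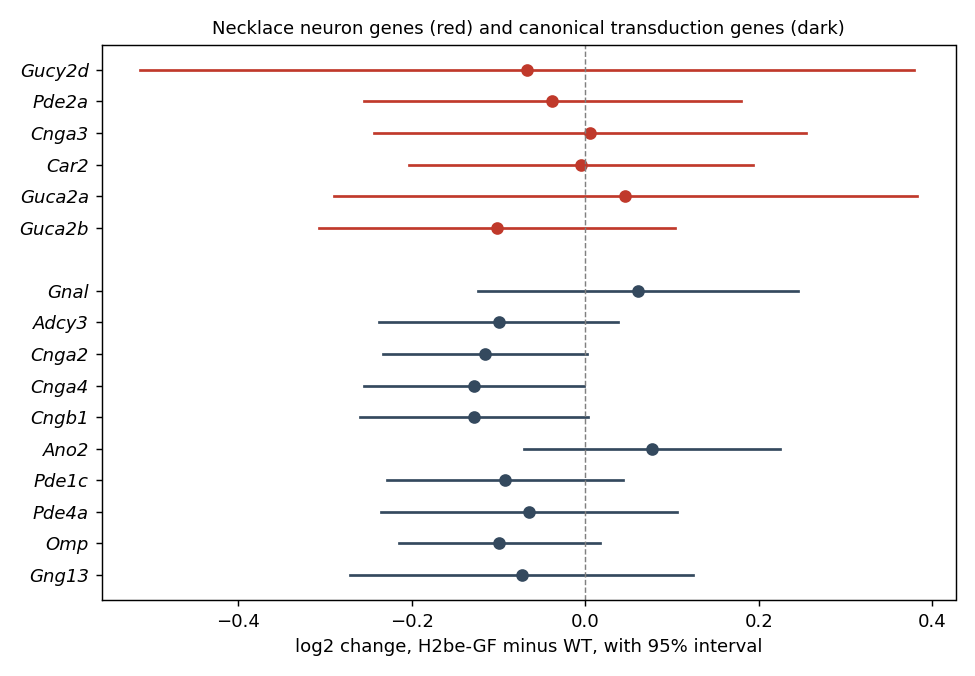
Log2 change, H2be-GF minus WT (horizontal axis), of the 6 necklace neuron genes (red) and the 10 canonical transduction genes (dark), with bars for the 95% interval of limma over 4 H2be-GF and 6 WT arrays. All red intervals include 0, from -0.51 to 0.38 for Gucy2d at the widest, and 8 of the 10 dark points lie below 0.

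The cGMP pathway around the necklace neuron genes was described with 9 lists of 77 further genes, of which 74 were measured and tested. Limma called 0 in either direction. At an unadjusted p under 0.05 there were 5 higher and 2 lower in H2be-GF, 9.46% of the 74 beside 8.43% of all probe sets, and the median change was -0.01 beside 0.01. For 2 of the 74 genes, Vsnl1 and Cnga2, the genotypes did not overlap, a share close to the 2.89% of all probe sets.

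Of the sources of cGMP, the 6 receptor guanylyl cyclases (the relatives of GC-D) included 2 higher and 4 lower in mean, with 0 at an unadjusted p under 0.05. Their smallest unadjusted p belonged to Npr2, the receptor of C-type natriuretic peptide, with a change of 0.17 (SE 0.08, limma adjusted p = 0.630), and Gucy2g, an orphan cyclase of the Grueneberg ganglion, with -0.14 (SE 0.12, limma adjusted p = 0.802). Of the 4 soluble cyclase subunits, which respond to nitric oxide, 3 were higher in mean, and the median change was 0.18. Gucy1b1, the shared beta subunit, was at 7.55, 7.47, 7.35 and 7.05 in H2be-GF and 6.99 to 7.26 in WT, a change of 0.26 (SE 0.10, limma adjusted p = 0.522). Its alpha partner Gucy1a1 gave 0.20 (SE 0.10, limma adjusted p = 0.647). Both subunits had their lowest H2be-GF value on the array H2be-GF 4, within the WT range. Among the natriuretic peptide genes, Nppc, which encodes C-type natriuretic peptide, was at 8.02, 8.70, 7.94 and 7.98 in H2be-GF and at 7.64 to 7.97 in WT, and differed by 0.40 (SE 0.14, limma adjusted p = 0.439). Without the array H2be-GF 2 the difference was 0.22. Npr3, the clearance receptor of these peptides, gave -0.16 (SE 0.09, limma adjusted p = 0.676).

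Calcium sensor proteins tune membrane cyclases, and 7 of the 8 listed were measured. Vsnl1, a visinin-like calcium sensor, was at 9.86, 9.94, 9.98 and 9.88 on the H2be-GF arrays, and at a lowest of 10.11, a median of 10.18 and a highest of 10.27 in WT. Every H2be-GF array lay below every WT array, by a change of -0.27 (SE 0.06) that limma did not call (adjusted p = 0.184). With a variance trend and robust fit it was called (limma adjusted p = 0.0149, and between 0.0149 and 1.00 across alternatives). It was the single call among the 18 pathway genes named by rule, over all 23 alternatives. Ncald, neurocalcin delta, a sensor known to act on receptor cyclases, gave 0.16 (SE 0.09, limma adjusted p = 0.668).

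The list of other cGMP phosphodiesterases held 15 genes of enzymes and their subunits, among them the non-catalytic Pde6d, Pde6g and Pde6h. Of the 15, 7 were higher and 8 lower in mean, and 3 had an unadjusted p under 0.05, all of them higher in H2be-GF. Pde6b, a subunit of the rod photoreceptor enzyme, was at 6.25, 5.90, 5.97 and 6.11 in H2be-GF and at 5.41 to 5.90 in WT, a change of 0.38 (SE 0.11, limma adjusted p = 0.344). Pde5a, the cGMP-specific enzyme of smooth muscle, gave 0.21 (SE 0.08, limma adjusted p = 0.453). Neither was called. Among the 5 other cyclic nucleotide-gated channel subunits, Cnga4, the modulatory partner of Cnga2 in OR neurons, gave -0.13 (SE 0.06, limma adjusted p = 0.587), next to the Cnga2 value above. The cGMP-dependent kinases Prkg1 and Prkg2 gave 0.14 (SE 0.13, limma adjusted p = 0.814) and -0.01 (SE 0.13, limma adjusted p = 0.992).

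Carbonic anhydrases other than Car2 numbered 15, with 5 higher and 10 lower in mean, a median change of -0.04 and 0 at an unadjusted p under 0.05. Car13, a cytosolic enzyme, gave -0.20 (SE 0.09, limma adjusted p = 0.619), and Car11, a relative that lacks catalytic activity, gave 0.15 (SE 0.07, limma adjusted p = 0.645). The MS4A genes encode membrane proteins that act as chemoreceptors in necklace neurons of the mouse and are also expressed by immune cells. Of 18 listed, 16 were measured, 9 higher and 7 lower in mean, with a median change of 0.10 and 0 at an unadjusted p under 0.05. Ms4a7 was at 7.22, 7.11, 7.04 and 7.41 in H2be-GF and at 6.78 to 7.21 in WT (0.21, SE 0.10, limma adjusted p = 0.592). Ms4a6b gave 0.19 (SE 0.09, limma adjusted p = 0.610). Macrophage markers, 5 of 5 measured, summed to 10.57 to 10.83 in H2be-GF and 10.57 to 10.76 in WT, and their part in the MS4A levels was not tested.

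**Figure D3:**
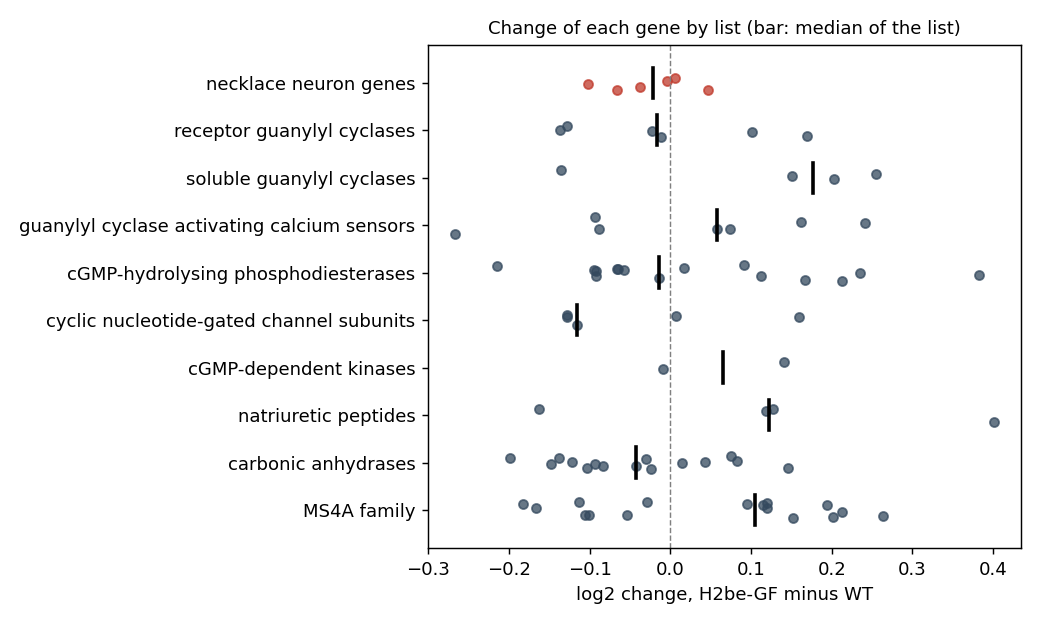
Log2 change, H2be-GF minus WT (horizontal axis), of the 6 necklace neuron genes (red) and of the 74 measured genes on 9 pathway lists (dark); each point is 1 gene and each bar the median of its list. No point is a call, the red points lie between -0.10 and 0.05, and the outermost points are Nppc at 0.40, Pde6b at 0.38 and Vsnl1 at -0.27.

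Since genotype accounted for little of their variation, the 6 genes were compared by how they varied from array to array within genotypes, as deviations from the genotype means over 10 arrays. These correlations are descriptions, and the arrays share their normalization. Guca2a and Guca2b varied together most (r = 0.73, rho = 0.73), followed by Cnga3 with Guca2b (r = 0.66, rho = 0.62) and Cnga3 with Guca2a (r = 0.51, rho = 0.49). Gucy2d and Pde2a ran opposite ways (r = -0.39, rho = -0.50). Gucy2d, which defines the population, did not correlate above 0.39 with any of the other 5, so that the 6 genes did not vary as 1 block.

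The genes that varied together also followed the overall level of the array. Over the 10 arrays the deviations correlated with the array median at 0.87 for Guca2a, 0.76 for Guca2b, 0.68 for Cnga3, 0.53 for Car2, 0.38 for Pde2a and 0.25 for Gucy2d. Probe sets within 0.5 log2 units of the same level gave a median correlation of 0.44 for Guca2a, 0.13 for Guca2b, 0.42 for Cnga3, -0.04 for Car2, 0.25 for Pde2a and 0.44 for Gucy2d. The high pair of Guca2a values in H2be-GF came from H2be-GF 1 and 3, which had the highest H2be-GF array medians, and the low pair from H2be-GF 2 and 4, with medians of 7.80 and 7.79. With the array median as a covariate, a fit added after the data had been seen, the genotype difference of Guca2a was -0.03 and that of Guca2b -0.14 (limma adjusted p = 0.940 and 0.580), and those of Gucy2d, Pde2a, Cnga3 and Car2 lay between -0.10 and -0.03, with 0 of 6 called.

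**Figure D4:**
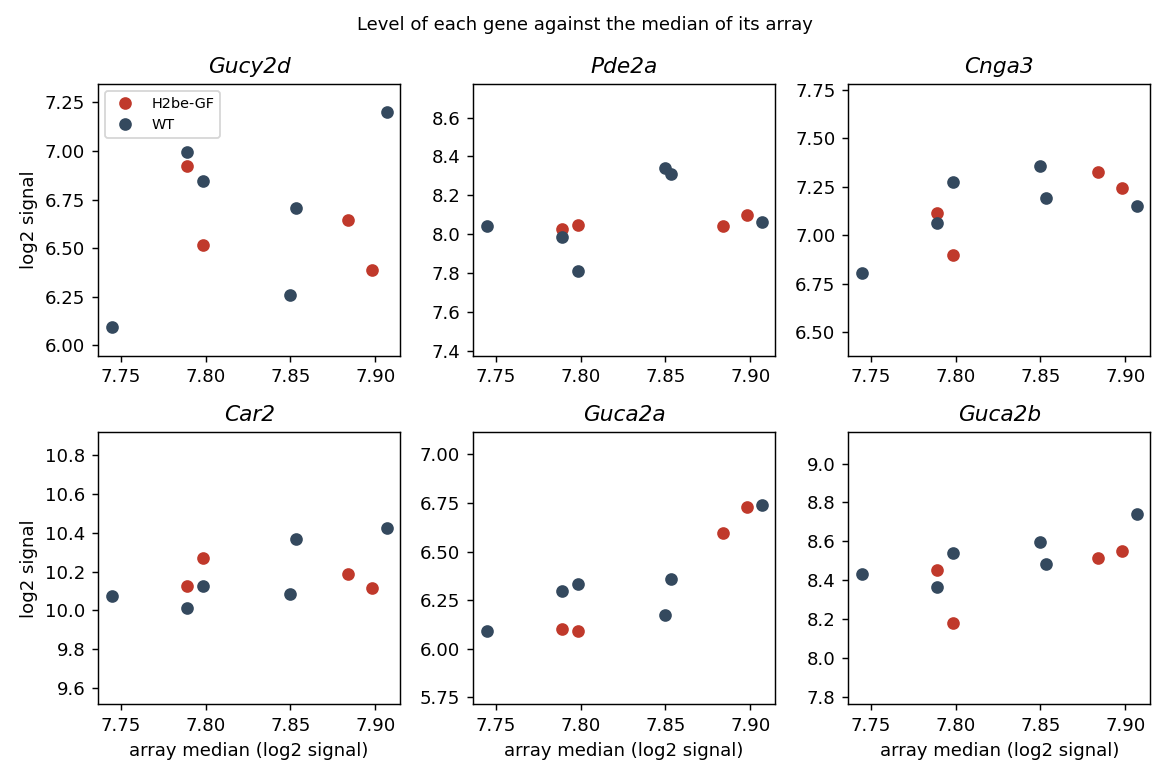
Level of each necklace neuron gene (vertical axis, log2 signal) against the median of all probe sets on the same array (horizontal axis, log2 signal), for 4 H2be-GF (red) and 6 WT (blue) arrays. Guca2a climbs with the array median (r = 0.87 for deviations from the genotype means), while Gucy2d scatters (r = 0.25).

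The genes whose deviations were most like those of each member were also listed, the 3 closest of all tested genes by Pearson correlation over 10 arrays. With 10 arrays and so many genes, high values are to be found for any gene. Gucy2d was closest to the ribosomal protein gene Rps3a1 (r = 0.95), Gm6588 and Fam181b, and Pde2a to the calcium-binding protein gene Necab1 (r = 0.97), Qtrt1 and Egflam. Cnga3 was closest to Ranbp3 (r = 0.97), Nlrx1 and Dgkeos, and Car2 to Zfp985 (r = 0.94), B130024G19Rik and Mapk8. Guca2a was closest to Tceal5 (r = 0.97), Rbp2 and Traf1, of which all 3 correlated with the array median at 0.82 or above. Guca2b was closest to the receptor cyclase gene Gucy2g (r = 0.98), the gastric proton pump gene Atp4a and E030030I06Rik. These 3 also correlated with the array median, at 0.675 or above. Guca2b and Gucy2g both had their lowest H2be-GF value on the array H2be-GF 2. None of the other 5 genes was among the 3 closest of any member.

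Gucy2d lies near Omp on chromosome 7, and the genes between them were also followed, an addition made after the data had been seen. The transgene carries the Omp promoter but was injected as a linear construct. Its insertion site is not given, so this region is not known to lie near it. In the gene order Capn5, Omp, B3gnt6, Acer3, Tsku, Gucy2d and Lrrc32, limma called none of the 6 that were measured, and Tsku had no probe set of its own symbol alone. Acer3, an alkaline ceramidase gene, was at 7.93, 8.15, 7.98 and 7.88 in H2be-GF and at 7.79 to 7.92 in WT (0.13, SE 0.07, limma adjusted p = 0.652). On chromosome 4, Guca2a and Guca2b lie between Foxj3 and Hivep3, which gave 0.12 (SE 0.09, limma adjusted p = 0.759) and 0.25 (SE 0.12, limma adjusted p = 0.588). No gene at either place was called.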

How the data were processed

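Scans of Affymetrix Mouse Gene 1.0 ST arrays were screened by the authors for outliers with arrayQualityMetrics. Expression Console then summarised each probe set by IterPLIER, with sketch-quantile normalization, and the deposited log2 values have a lower limit of 0. Versions and the genome build are not given in the sources used here. Quantile normalization hides a change shared by most genes, and IterPLIER makes changes of dim probe sets less certain. The platform annotation gave 21789 of 35556 probe sets 1 symbol, 1621 several and 12146 none. Of those with 1 symbol, 21695 matched a RefSeq gene table (GRCm38.p6), used for current names and gene order.

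Differences, H2be-GF minus WT, were fitted by limma 3.58.1 under R 4.3.3 (lmFit, eBayes, two-sided, no covariate) on 23194 probe sets with a symbol and a mean above 5, with Benjamini-Hochberg adjustment. Single genes were also tested by exact permutation, and rank correlations (rho) were computed with scipy 1.17.1. The labels mark the arrays as separate replicates, so p-values measure the spread between pools. The number of arrays limits the precision.

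All 6 genes are named, with the 2 genes of smallest p per pathway list, the 3 genes most like each member, Omp and Hist2h2be. Genes with several probe sets used the brightest. The members and lists were chosen with earlier results of these data known. Alternatives covered normalization, an added constant of 16, variance models, array weights, the replicate number, Xist, level filters and leaving out each array. Upstream sequences were read from a RefSeq promoter table, which held 5 of the 6 genes. Plots used matplotlib 3.10.9.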

Additional observations from a re-analysis of the deposited data

Results flagged for a closer look

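Of 48 groups of arrays examined, the H2be-GF and the WT arrays of the 6 necklace neuron genes and 18 named pathway genes, 4 held 1 array far from the rest. Chance alone sets an array apart in about 1 in 20 groups. None of the 4 concerned a necklace neuron gene. The gap to the nearest array, as a share of the whole range of the group, was 0.892 for Nppc, where H2be-GF 2 at 8.70 stood above the other H2be-GF arrays, at 7.94 to 8.02. It was 0.875 for Gucy2g, where H2be-GF 2 at 7.17 stood below the others, at 7.57 to 7.63. It was 0.846 for Prkg2, where H2be-GF 1 at 6.31 stood above the others, at 6.01 to 6.06. For Car13 it was 0.749, where WT 1 at 8.64 stood below the other WT arrays, at 8.85 to 8.92. Without H2be-GF 2, the difference between H2be-GF and WT was 0.22 for Nppc, against 0.40 with it, and -0.03 for Gucy2g, against -0.14 with it. No cause was tested.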

How the results depend on the processing

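None of the 6 necklace neuron genes was called in any of 136 fits under 23 alternatives, and the lowest unadjusted p was 0.0907 (Guca2b with the array median as covariate, limma adjusted p = 0.580). Guca2b was lower in H2be-GF in all of its fits, from -0.20 to -0.00078. The other 5 genes, with differences near 0, changed sign. Cnga3 was -0.026 after a second quantile normalization, -0.013 with array medians centred (also in the exact test), -0.12 on the Xist-high arrays and -0.037 with the array median as covariate. Car2 was 0.022 on the Xist-high arrays, Guca2a -0.031 with the array median as covariate, and Gucy2d 0.24 on the Xist-low arrays. Leaving out 1 array gave -0.062 to 0.088 for Cnga3, -0.039 to 0.043 for Car2, -0.071 to 0.14 for Guca2a, -0.14 to -0.02 for Guca2b, -0.18 to 0.037 for Gucy2d and -0.094 to 0.012 for Pde2a. Gucy2d and Guca2a had no value with a mean above 7 required.

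Replicate numbers do not pair the arrays by the labels. In their deviations from the genotype means, same-numbered arrays correlated at -0.42 to 0.53. With the replicate number as a block, 5 probe sets were called, 0 of them necklace neuron genes, and Cnga3 gave -0.045 and Guca2a -0.014. Of all probe sets, 114 were called with a trended robust variance, 36 with a mean above 7, 0 in either set of arrays that Xist separates (1113 on the Xist-high arrays and 1012 on the Xist-low arrays at an unadjusted p under 0.05), and 11 to 19 with 1 array left out, 11 without H2be-GF 1 and 13 without H2be-GF 3. The channel subunits had a median of -0.06 with the mean of all probe sets per gene. On the Xist-low arrays, Prkg2 gave 0.092 and Gucy2g 0.0092, and leaving out 1 array gave -0.077 to 0.075 for Prkg2. The causes were not tested.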

Other observations

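Among the cell type markers read beside the necklace neuron genes, respiratory ciliated cell markers were lower in H2be-GF for 6 of 6 genes, with a median change of -0.16 and a summed level of 12.04 to 12.11 in H2be-GF and 12.14 to 12.33 in WT. None was called, and 4 had an unadjusted p under 0.05. Foxj1, the master regulator of motile cilia, was at 9.43, 9.56, 9.62 and 9.67 in H2be-GF and at 9.66 to 9.77 in WT (limma adjusted p = 0.522). The 1 call among all marker genes, beside 0.0862% of all probe sets tested, was Lhx2, a homeodomain factor of olfactory neurons. It was at 11.46 ± 0.03 (SD, n = 4) for H2be-GF and 11.09 ± 0.06 (SD, n = 6) for WT (0.37, SE 0.06, limma adjusted p = 0.0425). Its fits under the processing alternatives are not given here. Foxj1 and Lhx2 are outside the rule for naming and were chosen after their values were seen. The next 6 marker lists overlapped between genotypes in summed level. Sustentacular cell markers summed to 14.48 to 14.61 in H2be-GF and 14.49 to 14.63 in WT, and microvillous and tuft-like cell markers to 11.04 to 11.20 in H2be-GF and 11.08 to 11.21 in WT. Those of vomeronasal and type B neurons summed to 11.19 to 11.46 in H2be-GF and 11.16 to 11.43 in WT, and those of immature neurons, Lhx2 included, to 13.86 to 13.98 in H2be-GF and 13.79 to 13.97 in WT. Horizontal basal cell markers summed to 11.70 to 11.90 in H2be-GF and 11.68 to 12.19 in WT, and ensheathing and glial cell markers to 11.87 to 11.94 in H2be-GF and 11.80 to 11.97 in WT.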
